A study of Mus musculus with 39 samples.

Results

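Cultured cerebellar granule neurons in which Ezh1 was conditionally knocked out were compared with cultures carrying unaltered Ezh1, after 5 days in vitro (DIV5). These cultures gave 9 of the 39 RNA-seq libraries of a study of gene expression in mouse cerebellar granule cells, and all libraries labelled with an Ezh1 genotype were taken. The 5 wild-type (wt) libraries came from Ezh1(wt/wt);Atoh1-Cre mice and the 4 knockout (cKO) libraries from mice with both Ezh1 alleles floxed and the same Atoh1-Cre, so both genotypes express Cre. Granule cell progenitors were taken from the cerebellum at postnatal day 7 (P7), plated and cultured. Atoh1 is the transcription factor that defines granule cell progenitors, so recombination is limited to cells that expressed it, and any other cell type in the dish may keep a functional Ezh1. The strain, the exon removed and the number of animals behind each culture are not given in the sources used here, so p-values measure the spread between these libraries, which may be partly technical. For comparison, 2 libraries each were used of DIV5 cultures with DMSO or with UNC1999 at 100 nM, a small molecule that blocks both EZH1 and EZH2, and of freshly isolated cells (DIV0). The 2 libraries of DMSO cultures at DIV2 entered the same fit and were not compared. A further 5 libraries each came from ribosome affinity purification (TRAP) under Neurod1 at P7 and P21.

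EZH1 and EZH2 are the alternative catalytic subunits of Polycomb repressive complex 2 (PRC2), which methylates lysine 27 of histone H3 (H3K27me3) and so keeps developmental genes silent. EZH2 prevails in dividing cells and EZH1 in cells that have left the cell cycle, such as neurons. Granule neurons leave the cell cycle, extend axons, migrate and then switch on synaptic and channel genes. The comparison asks what the loss of Ezh1 alone does to the transcriptome of these young neurons.

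The wt and cKO libraries held 12.7 to 22.1 M counts each. Replicates 1-2 of both genotypes stood apart from replicates 3-5. The first principal component, with 84.5% of the variance, split them, and 9271 of the 14461 genes tested (64.1%) differed between these 2 library sets (edgeR, adjusted p under 0.05). What the sets are is not given in the labels. Microglia markers summed to 645 to 919 CPM (counts for each M counts of the scaled library) in replicates 1-2 and 68.2 to 106 in replicates 3-5, and Bergmann glia and astrocyte markers to 7709 to 14340 and 3203 to 7368. A set of 56 genes had at least 1 CPM in each of the libraries of replicates 1-2 and no count in replicates 3-5. Among them was the ribosomal protein gene Rpl26, at 266.8 to 514.1 CPM in replicates 1-2. Whether both sets were quantified in the same way was not tested. The set was therefore a term in the fits reported for these cultures, unless stated otherwise, while means ± SD and ranges are over all libraries of a genotype. The wt replicate 1 library also stood apart from wt replicate 2. Their counts differed by a chi-square per degree of freedom of 54.2, against 4.3 to 15 in the other pairs of the same genotype and set.

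The targeted gene was measured first. Ezh1 stood at 42.7, 43.3, 49.3, 47.0 and 39.4 CPM in wt replicates 1 to 5 and at 35.4, 36.6, 35.1 and 33.3 CPM in cKO replicates 1 to 4. All cKO libraries lay below all wt libraries, as for 0.671% of genes tested, yet the transcript was still present at 0.792 of the wt level (44.3 ± 3.89 CPM, SD, n = 5, against 35.1 ± 1.39, n = 4). The difference did not pass the test across all genes (log2 fold change -0.34 ± 0.08 SE, edgeR adjusted p = 0.578). An exact permutation test of Ezh1 alone, two-sided and with genotypes exchanged within sets, gave p = 0.0333 over 60 assignments. Because the deleted exon is not named in the labels, reads from the rest of the gene may remain, and the summed RNA level does not check the deletion. Ezh2 stood at 50.8, 43.9, 53.1, 52.5 and 63.1 CPM in wt and at 45.8, 49.1, 56.0 and 58.9 CPM in cKO. The groups overlapped (0.02 ± 0.08, 95% interval -0.16 to 0.19; exact permutation p = 0.767). Per kilobase of the longest annotated transcript, the level of Ezh2 (18.9 ± 2.46 in wt) was above that of Ezh1 (10.5 ± 0.924 in wt, 8.34 ± 0.33 in cKO). In the P21 TRAP libraries Ezh1 stood at 92.6 ± 4.65 CPM and Ezh2 at 7.87 ± 0.543 CPM (SD, n = 5). Those values are not divided by length and come from ribosome-bound RNA scaled in a separate fit.

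Of 14461 genes tested, 1 passed an adjusted p under 0.05 (0.00692%). It was Rapgefl1, which was higher in cKO. The next adjusted p-values were 0.0934 for Ccl9 and 0.354 for Ccl6, both lower in cKO, and no gene passed in that direction. At an unadjusted p under 0.05, edgeR gave 1145 genes (7.92%), 428 higher (2.96%) and 717 lower (4.96%). DESeq2 called 5 genes, namely Rapgefl1 and Sox5 higher and Ccl9, Ccl6 and Rdm1 lower. The precision was moderate, with a median standard error of 0.11 on the log2 scale. The 95% interval lay within a 2-fold change either way, that is within 1 log2 unit, for 93.9% of genes, and within a 1.5-fold change for 74.9%. Only 38 genes had an estimate beyond 1 log2 unit.

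**Figure D1:**
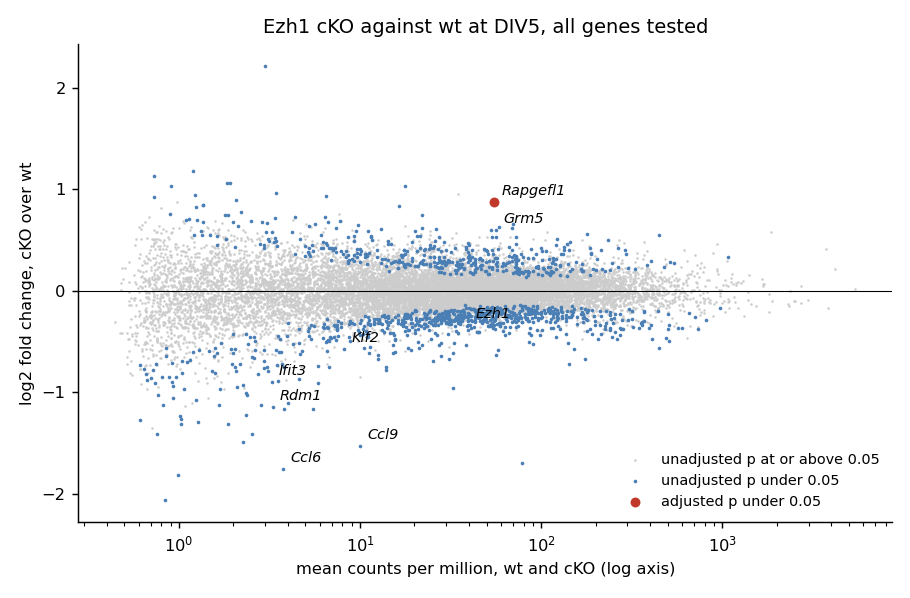
Each point is a gene, with the mean CPM over wt and cKO on a log axis and the log2 fold change of cKO over wt. Rapgefl1, the red point at 0.88, is the only gene with an adjusted p under 0.05, and Ccl9 and Ccl6 lie at -1.53 and -1.76.

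Rapgefl1 encodes a protein related to the guanine nucleotide exchange factors for Rap GTPases. It stood at 31.5, 34.6, 48.8, 44.9 and 38.8 CPM in wt replicates 1 to 5. In cKO replicates 1 to 4 it stood at 62.9, 62.6, 82.8 and 74.5 CPM. All 4 cKO libraries lay above all 5 wt libraries, as for 0.27% of genes tested, and Rapgefl1 was 1.83-fold higher (0.88 ± 0.08 SE, edgeR adjusted p = 0.00621). The estimate was 0.93 within replicates 1-2 and 0.84 within replicates 3-5, where the smaller numbers gave adjusted p-values of 0.724 and 0.311. Without cKO replicate 3 the estimate was 0.85 and the call was lost (adjusted p = 0.0974). Rapgefl1 lies on chromosome 11 (GRCm38.p6, 98836785 to 98853009), 2.35 Mb from Ezh1 (101191115 to 101226463), counted between the lower ends of the genes.

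The same gene rose with UNC1999 (0.30 ± 0.08, adjusted p = 0.0241), at 39.8 and 43.9 CPM with DMSO and 48.6 and 54.7 CPM with the inhibitor. That call was lost with DESeq2 (adjusted p = 0.115), without DMSO replicate 1 (0.172) and without UNC1999 replicate 2 (0.226). The estimate in cKO exceeded that with UNC1999 by 0.56 ± 0.13, a difference that did not pass (adjusted p = 0.282). It also rose during culture, from 5.45 and 6.34 CPM at DIV0 (2.81 ± 0.12, adjusted p = 7.7e-12). In the TRAP libraries it was higher at P21 than at P7 (1.06 ± 0.29, adjusted p = 0.0053).

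The promoters of Ezh1, of the called gene and of the chemokine gene with the second smallest p are shown because Polycomb repression in mammals acts at CpG-rich promoters. Each line gives the 250 bases before the annotated start on the gene's own strand, from RefSeq on GRCm38.p6, with every CG in capitals. The windows are chr11:101226464-101226713 on the minus strand, chr11:98836535-98836784 on the plus strand and chr11:83578637-83578886 on the minus strand.
Ezh1: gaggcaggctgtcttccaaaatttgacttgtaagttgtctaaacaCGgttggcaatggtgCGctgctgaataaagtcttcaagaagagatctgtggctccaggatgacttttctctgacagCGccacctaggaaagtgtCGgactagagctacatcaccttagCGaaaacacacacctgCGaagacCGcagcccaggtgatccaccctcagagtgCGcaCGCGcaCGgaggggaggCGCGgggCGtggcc
Rapgefl1: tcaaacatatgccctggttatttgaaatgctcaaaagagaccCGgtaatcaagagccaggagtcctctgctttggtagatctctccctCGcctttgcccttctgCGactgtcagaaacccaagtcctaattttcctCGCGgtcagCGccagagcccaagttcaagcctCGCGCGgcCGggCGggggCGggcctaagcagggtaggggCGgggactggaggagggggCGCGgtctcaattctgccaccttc
Ccl9: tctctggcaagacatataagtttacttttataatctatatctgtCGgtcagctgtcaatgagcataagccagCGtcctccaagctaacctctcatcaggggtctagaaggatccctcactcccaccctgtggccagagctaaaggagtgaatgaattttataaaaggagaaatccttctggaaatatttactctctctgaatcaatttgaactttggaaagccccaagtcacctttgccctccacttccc
The Rapgefl1 window holds 15 CG dinucleotides and the Ezh1 window 14, numbers reached by 27.5% and 29.6% of the 27025 windows of this length in the table. The Ccl9 window holds 2, and 80.6% of windows hold at least as many. The median was 16 among the 11365 windows of genes tested here. CG reads the same on both strands. These counts describe the letters only, since no chromatin mark was measured in these libraries.

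The next smallest p-values belonged to Ccl9 and Ccl6, chemokine genes of another stretch of chromosome 11. Ccl9, a chemokine made mainly by myeloid cells, stood at 31.5, 31.6, 1.71, 2.53 and 2.81 CPM in wt and at 14.3, 8.27, 0.775 and 0.68 CPM in cKO. Levels were far lower in replicates 3-5, but within each set both cKO libraries lay below every wt library, as for 3.79% of genes tested (-1.53 ± 0.20, adjusted p = 0.0934). Its neighbour Ccl6, another myeloid chemokine, stood at 16.8, 10.01, 0.521, 0.361 and 0.304 CPM in wt and at 4.38, 2.85, 0.211 and 0.204 CPM in cKO (-1.76 ± 0.28, adjusted p = 0.354). Ccl3 (-0.93 ± 0.23) and Wfdc17 (-1.81 ± 0.41) lie in the same stretch, 17.5 Mb from Ezh1, and had unadjusted p-values of 0.00219 and 9.4e-04 in the edgeR fit. Microglia markers as a list had a median of -0.10. Of the 12, 1 was lower at an unadjusted p under 0.05, Trem2 (8.33%, against 4.96% of all genes tested). Within replicates 1-2, where these chemokines are expressed, the list's median was -0.28 with 4 lower, and without wt replicate 1 it was -0.21 with none. Over all genes, 573 and 737 had an unadjusted p under 0.05 in these fits, against 1145 in the reported fit. All 12 markers were detected, and their sum in replicates 1-2 was 809.7 and 919.4 CPM in wt and 792.9 and 645.1 CPM in cKO, without overlap. In replicates 3-5 the sums overlapped, at 68.22 to 104.3 CPM in wt and 75.65 and 106.4 CPM in cKO. Within that set the list's median was -0.04 with none lower, and the Ccl9 estimate was -1.68. Sums of so few libraries can separate by chance, and the separation in replicates 1-2 was not tested. The part of these markers in the chemokine values was not tested.

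**Figure D2:**
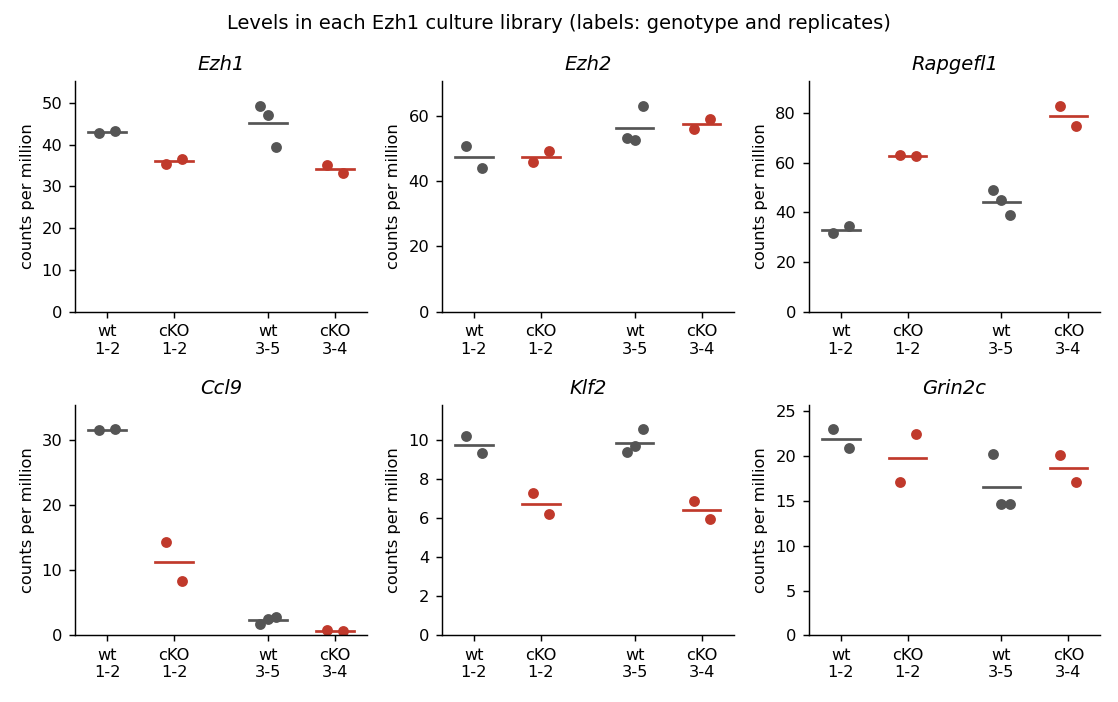
Each panel gives 1 gene in CPM, with a point per library and a line at the mean of each genotype within replicates 1-2 and replicates 3-5. Ezh1, Rapgefl1 and Klf2 separate the genotypes completely, Ccl9 separates them within each set, and Ezh2 and Grin2c overlap.

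Other genes among the 20 smallest p-values of the edgeR fit, named here after their values were seen, did not pass the adjustment (adjusted p of 0.55 for Rdm1 and 0.578 for the rest). Klf2, a Krüppel-like transcription factor, stood at 10.2, 9.34, 9.37, 9.68 and 10.6 CPM in wt and at 7.27, 6.2, 6.9 and 5.98 CPM in cKO. All cKO libraries lay below all wt libraries, as for 0.671% of genes tested (-0.58 ± 0.11). Sox5, a transcription factor of neuronal and glial precursors, stood between 28.3 and 42.6 CPM in wt and between 36.2 and 50.5 CPM in cKO (0.35 ± 0.07) and was higher in cKO within each set, as were 2.39% of genes tested. Robo1, a receptor for the axon guidance cue Slit, had an estimate of 0.40 ± 0.09. Grm5, a metabotropic glutamate receptor, had one of 0.60 ± 0.14. Ccn2, a secreted matricellular protein, stood between 182.9 and 454.2 CPM in wt and between 135.4 and 286.5 CPM in cKO (-0.48 ± 0.11). Its relative Ccn1 had an estimate of -0.42 ± 0.10 and the annexin gene Anxa3 one of -0.40 ± 0.09.

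The smallest p-values were then placed along the chromosome that carries the targeted allele. Chromosome 11 has 8.4% of the genes tested and 9 of the 20 with the smallest p-values, 6 of them within 5 Mb of Ezh1. Within 5 Mb, 28 of 188 genes tested (14.9%) had an unadjusted p under 0.05, 10 higher and 18 lower, and 1 was called. Ezh1 itself is counted among the 28, as it is in the share within 1 Mb. On other chromosomes it was 1028 of 13246 (7.76%). Over its whole length chromosome 11 (9.63%) did not stand apart by this share, with chromosome 6 above it (10.2%) and chromosomes 3 (9.52%) and 17 (9%) close to it. The share was 20.3% within 1 Mb (13 of 64) and 12.1% from 1 to 5 Mb (15 of 124). It was 12.4% from 5 to 10 Mb, 13.9% from 10 to 20 Mb and 6.1% beyond 20 Mb. Neighbouring genes are not independent replicates, so these shares are a description with no test. Without cKO replicate 2 the count within 5 Mb was 14, and without cKO replicate 1 it was 18. Leaving out a library can also move the count over all genes. Without wt replicate 1 it was 737, against 1145 in the full fit, and the count within 5 Mb was 25. The counts over all genes without cKO replicate 1 or 2 are not given here, so 14 and 18 cannot be set against them. Whether the share within 5 Mb moved beyond that of all genes was not tested.

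**Figure D3:**
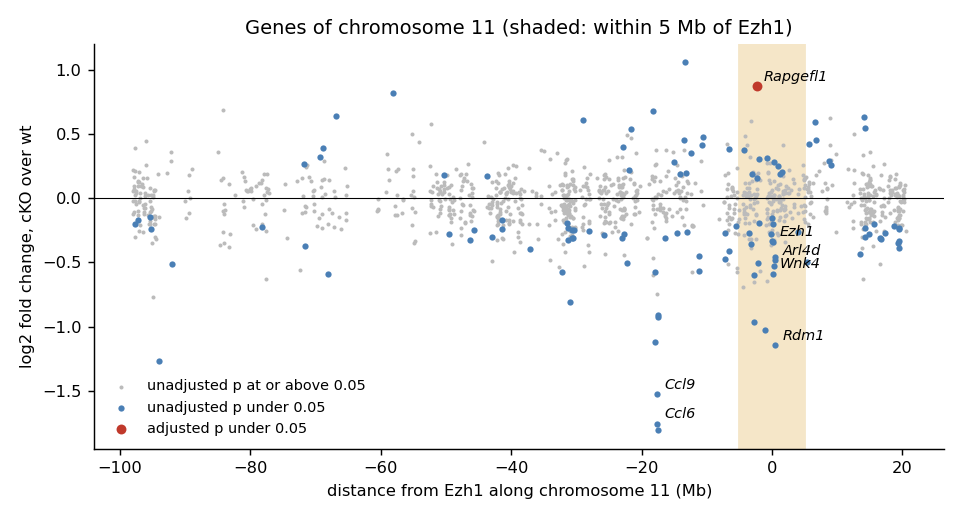
Each point is a tested gene of chromosome 11, placed by its distance from Ezh1 in Mb and its log2 fold change of cKO over wt, with the 5 Mb on either side of Ezh1 shaded. Rapgefl1 lies inside the shaded stretch, and the chemokine genes Ccl9 and Ccl6 lie 17.6 Mb away at the lower edge.

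Within that stretch the estimates went both ways. Rdm1, a gene of DNA repair 0.44 Mb from Ezh1, stood at 7.69, 6.08, 2.31, 2.31 and 3.64 CPM in wt and at 2.75, 3.63, 1.13 and 1.29 CPM in cKO (-1.14 ± 0.20). Wnk4, a kinase that regulates ion transporters, had an estimate of -0.59 ± 0.13. Arl4d, a small GTPase of the ARF family, stood between 7.25 and 9.75 CPM in wt and between 5.74 and 6.73 CPM in cKO (-0.48 ± 0.12). Igfbp4, an insulin-like growth factor binding protein, had an estimate of -0.50 ± 0.14 and the keratin gene Krt19 one of -1.03 ± 0.28. The labels do not say whether the genotypes were littermates or how far the floxed line was crossed. The genetic background next to the targeted allele therefore cannot be told apart from the loss of Ezh1 here.

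None of the Polycomb genes passed the adjustment. The median of the 11 PRC2 subunit genes tested was -0.02, against -0.00026 over all genes. Of them, 2 had an unadjusted p under 0.05 (18.2%), both lower, as had 4.96% of all genes tested. The 2 PRC2 genes were Ezh1 itself and Eed, the subunit that binds H3K27me3, at 37.2 to 48.2 CPM in wt and 34.0 to 42.6 CPM in cKO (-0.18 ± 0.06). Suz12, the core scaffold, had an estimate of 0.11 ± 0.09. Of 19 genes of PRC1, the complex that reads the mark, none had an unadjusted p under 0.05 and the median was 0.05. The reader Cbx7, which rose with UNC1999 (0.85, adjusted p = 0.00115), had an estimate of 0.29 ± 0.14. Of 3 genes for H3K27 demethylases, 2 are blank in these columns and Kdm6b had an estimate of 0.20 ± 0.09. Of 15 genes for enzymes that add or remove H3K4 methylation and their partners, none had an unadjusted p under 0.05 (median 0.08).

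Hox genes, the classic set that PRC2 keeps silent outside their own body regions, stayed near the detection limit. Of 39 Hox genes, 13 had no count in any of the 9 libraries, 37 stayed below 1 CPM in all, and the highest value was 1.47 CPM, in a wt library. Only Hoxd11 passed the filter on low counts, and its estimate was -0.31 ± 0.48. Of 57 other silenced developmental regulators, 33 passed the filter, none with an unadjusted p under 0.05, and their median was -0.03. The filter keeps a gene that reaches about 10 counts in at least 4 libraries, the smaller group size. A gene switched on to that level in all 4 cKO libraries would therefore have been tested. One switched on more weakly, or in only 1 of the library sets, could have been left out. No gene with 0 counts in all wt libraries had 5 or more in each cKO library.

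Genes of granule neuron differentiation had a median close to 0, with single estimates on both sides. Of 22 genes of the mature granule cell, none was called and the median was 0.02. An unadjusted p under 0.05 was found for 2 (9.09%), both higher, against 2.96% of all genes tested. The 2 were Etv1, a transcription factor of maturing granule cells (0.29 ± 0.12), and Grin2a, an NMDA receptor subunit (0.49 ± 0.22). Gabra6, the GABA-A receptor subunit of mature granule cells, stood at 39.2, 35.6, 20.01, 11.2 and 12.8 CPM in wt and at 32.6, 40.2, 19.3 and 21.6 CPM in cKO, and the groups overlapped (0.23 ± 0.17). Neurod1, a transcription factor of granule cell differentiation, had an estimate of 0.01 ± 0.11. The progenitor factor Atoh1 stayed at or below 0.65 CPM in all libraries and was not tested.

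Synapse and channel genes had medians above 0. At an unadjusted p under 0.05, 2.96% of all genes tested were higher and 4.96% lower. Of 24 synapse genes 4 had an unadjusted p under 0.05 (16.7%), all higher (median 0.09). They were the adhesion molecule Nlgn1 (12.6 to 19.9 CPM in wt, 20.5 to 26.3 CPM in cKO, 0.48 ± 0.14), the AMPA receptor subunit Gria4 (0.37 ± 0.11), the postsynaptic scaffold Shank1 (0.34 ± 0.12) and the active zone protein Rims1 (0.41 ± 0.17). Of 21 voltage-gated channel genes 1 had, the calcium channel Cacna1e (0.56 ± 0.22), with a median of 0.13. Of 29 axon guidance genes 3 had (median 0.04), with the largest estimate in Sema3d, a secreted semaphorin (0.66 ± 0.19). Of 21 genes of early differentiation and migration 2 had (median 0.05), Robo1 and Astn1, an adhesion molecule of migrating granule cells (0.31 ± 0.13). Of 12 GABA-A and glycine receptor genes 1 had, Gabra4 (0.28 ± 0.12), with a median of 0.14. None was called. The medians of the synapse and channel lists were 0.01 and 0.06 within replicates 3-5 alone and 0.14 and 0.18 within replicates 1-2. Transcript length moved with these values. With the genes split by transcript length into 3 classes of equal size, the median estimate was -0.11 in the short class, 0.00019 in the middle and 0.09 in the long class. The median of the long class minus that of the short class, each relative to the set, was -0.41 on the log2 scale in wt replicate 1. The other libraries lay between -0.08 and 0.21. Without wt replicate 1 the medians of the short and the long class were -0.04 and 0.04, and those of the synapse and channel lists were 0.08 and 0.11. The part of transcript length in the neuronal values beyond that was not tested.

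**Figure D4:**
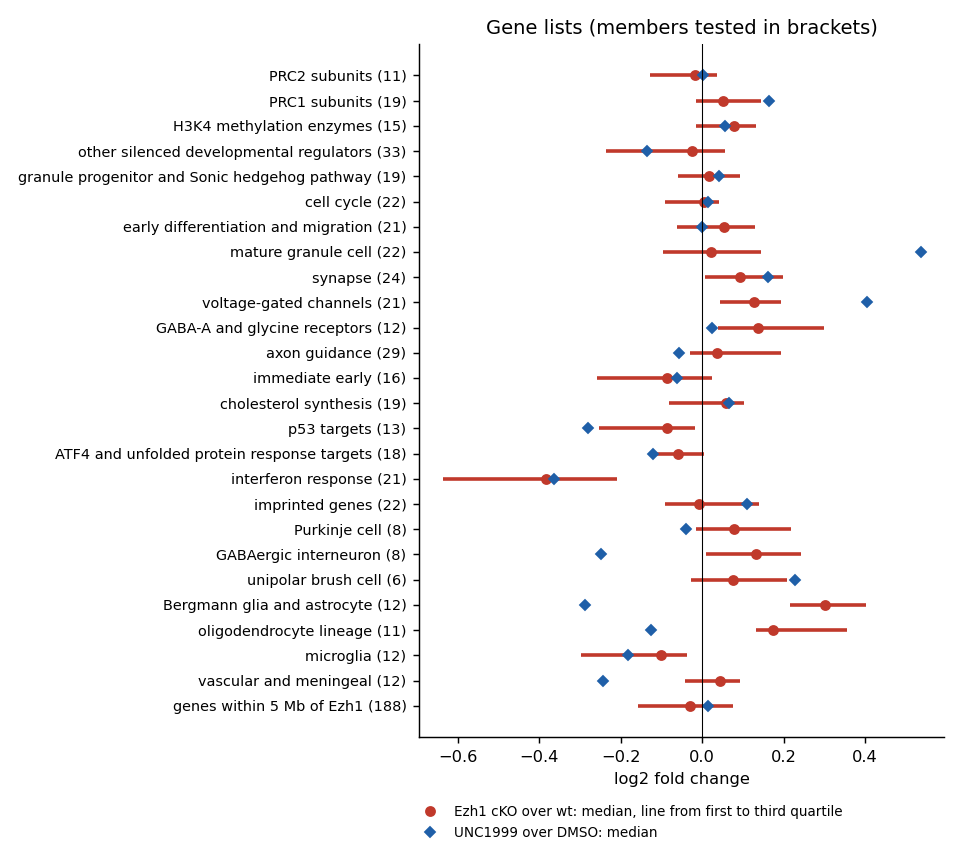
For each gene list, the red point is the median log2 fold change of cKO over wt with a line from the first to the third quartile, and the blue diamond is the median for UNC1999 over DMSO. The mature granule cell list lies at 0.02 in cKO and 0.54 with UNC1999, and the Bergmann glia and astrocyte list at 0.30 and -0.29.

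Proliferation, stress and immune genes had no called member. The counts below stand against 2.96% of all genes tested that were higher and 4.96% that were lower at an unadjusted p under 0.05. Of 22 cell cycle genes 1 had an unadjusted p under 0.05, Birc5, an inhibitor of apoptosis needed for cell division (-0.31 ± 0.12), and the list's median was 0.00. Mki67, a marker of cycling cells, stood between 61.7 and 109.8 CPM in wt and between 83.8 and 114.6 CPM in cKO, overlapping (0.23 ± 0.13). Of 19 progenitor and Sonic hedgehog genes none had, with a median of 0.02. The interferon response list had the lowest median of the lists, -0.38 over 21 genes. Only 3 of them had an unadjusted p under 0.05, all lower: the antiviral genes Mx1 (-0.85 ± 0.34) and Ifit3 (-0.90 ± 0.35) and the transcription factor Irf7 (-0.62 ± 0.27). Without wt replicate 1 the list's median was -0.20 and none had, and with the replicate block it was -0.52 and 10 had. The block treats same-numbered libraries as pairs, which the reported fit does not. The count over all genes moved as well. It was 737 without wt replicate 1, against 1145 in the reported fit, and above 1145 with the block. Whether the interferon list moved beyond that was not tested. Of 13 p53 target genes 4 had (1 without wt replicate 1, and 0 within either library set), 3 of them lower, including the apoptosis effector Bax (-0.25 ± 0.10) and Phlda3, a repressor of AKT signalling (-0.36 ± 0.15). Of 18 ATF4 and unfolded protein response genes 2 had, the stress factor Atf4 itself (-0.25 ± 0.11) and Sesn2, also on the p53 list (0.21 ± 0.09). The list's median was -0.06, but 0.04 without wt replicate 1, where none had, and 0.10 within replicates 3-5. Of 19 genes of cholesterol synthesis 1 had, the farnesyl diphosphate synthase gene Fdps (-0.34 ± 0.14), with a median of 0.06 (-0.01 without wt replicate 1). Of 16 immediate early and activity genes 3 had, the neurotrophin Bdnf (-0.48 ± 0.16), Ier2 (-0.29 ± 0.10) and the nuclear receptor Nr4a2 (0.28 ± 0.12). Of 22 imprinted genes 2 had. Snrpn, which encodes a splicing protein, stood at 0.795 to 1.56 CPM in wt and 1.13 to 4.64 CPM in cKO (1.06 ± 0.34), and the growth inhibitor Cdkn1c had an estimate of -0.46 ± 0.19.

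Markers of the other cells that such cultures can hold were measured as well. Over all genes tested, 2.96% were higher and 4.96% lower at an unadjusted p under 0.05. All 12 Bergmann glia and astrocyte markers had a positive estimate, with a median of 0.30 (0.22 without wt replicate 1), and 2 had an unadjusted p under 0.05, the glycolytic enzyme gene Aldoc (0.40 ± 0.14) and the growth factor gene Gdf10 (0.43 ± 0.18). Within replicates 3-5 the median was 0.42 with 6 higher, within replicates 1-2 it was 0.18 with none, and with the replicate block it was 0.35 with 7. The count over all genes, 1145 in the reported fit, was lower within either set and higher with the block. The summed level of these markers overlapped between the genotypes in replicates 1-2, at 7709 and 14170 CPM in wt against 11220 and 14340 CPM in cKO. It did not in replicates 3-5, at 3203 to 5781 CPM in wt against 6058 and 7368 CPM in cKO. With so few libraries of a genotype in a set, marker sums can separate by chance, and their separation was not tested. In these bulk cultures, more cells of a type and more RNA per cell cannot be told apart. Of 11 oligodendrocyte lineage markers 1 had an unadjusted p under 0.05, the myelin gene Mog (0.49 ± 0.16), and the median was 0.17. Within replicates 1-2 the median was 0.36 with 4 higher, and the markers summed to 1154 and 1380 CPM in wt and 1497 and 1712 CPM in cKO, without overlap. In replicates 3-5 the sums overlapped, at 319 to 355.8 CPM in wt and 272.1 and 382.7 CPM in cKO. None of the markers of Purkinje cells (8 tested), GABAergic interneurons (8), unipolar brush cells (6) or vascular and meningeal cells (12) had, with medians of 0.08, 0.13, 0.07 and 0.04. Erythrocyte markers summed to at most 1.13 CPM.

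The genotype effect was also compared between the library sets. No gene differed at an adjusted p under 0.05 in edgeR (0%, smallest adjusted p 0.873), 546 (3.78%) had an unadjusted p under 0.05, and DESeq2 called 1, Otof. Otof, a calcium sensor of synaptic vesicles, stood at 2.23 and 1.29 CPM in wt and 3.54 and 1.62 CPM in cKO in replicates 1-2. In replicates 3-5 it stood at 0.217 to 0.531 CPM in wt and 9.37 and 5.64 CPM in cKO (edgeR adjusted p of the difference 0.873). For Rapgefl1 the difference of effects was -0.09, with a 95% interval from -0.47 to 0.28. Without wt replicate 2, which leaves wt replicate 1 alone in its set, 1130 genes differed.

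The effect was then set beside that of UNC1999, which inhibits EZH2 and EZH1 together, in cultures that share no library with the Ezh1 cultures. UNC1999 changed 1899 of 15978 genes (11.9%), 1016 higher (6.36%) and 883 lower (5.53%). Of the genes that rose with UNC1999, 973 were tested in the Ezh1 cultures. Of these, 1 was called, 89 had an unadjusted p under 0.05 and were higher, 6 were lower, and the median was 0.10. Of the 828 that fell with UNC1999 and were tested, 24 were higher and 82 lower, with a median of -0.06. Among the 12517 genes tested and not called with UNC1999, 313 were higher and 622 lower, with a median of -0.01. The genes that rose with UNC1999 had longer transcripts, 588 of them in the long class and 113 in the short class. Their median in cKO was 0.13 in the long class, 0.05 in the middle and -0.04 in the short class, and that of the genes that fell was 0.07, -0.03 and -0.19. The medians of all genes in these classes were 0.09, 0.00019 and -0.11. Without wt replicate 5 the 2 medians were 0.06 and -0.03, with 46 higher and 11 lower, and 48 higher and 59 lower. With single libraries left out in turn, the 2 medians ran from 0.06 to 0.13 and from -0.08 to -0.02. Without wt replicate 1 the genes that rose had medians of 0.09, 0.07 and 0.03 in the long, middle and short class. The genes that fell had 0.00086, -0.02 and -0.09, and all genes had 0.04, 0.0041 and -0.04.

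Mature granule cell genes were called with UNC1999 and not in cKO, and for some of them the difference between the effects passed its own test. With UNC1999, 14 of the 22 rose and the median was 0.54, against 0 called and 0.02 in cKO. The difference of effects itself, cKO minus UNC1999, passed for 7 of 15453 genes (0.0453%). Those with the smaller estimate in cKO were Nptx1, Grin2c, Islr2, Eomes, Cdk5r2 and Gabra6, and Ptprk had the larger one. Grin2c, an NMDA receptor subunit of mature granule cells, stood at 22.9, 20.9, 20.2, 14.6 and 14.6 CPM in wt and at 17.1, 22.5, 20.1 and 17.1 CPM in cKO. With DMSO it stood at 10.9 and 12.7 CPM and with UNC1999 at 43.2 and 51.0 CPM, 3.97-fold higher. The estimates were 0.02 in cKO and 1.99 with UNC1999 (difference -1.98 ± 0.22, adjusted p = 0.00485).

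Nptx1, a secreted pentraxin of excitatory synapses, stood between 47.1 and 70.4 CPM in wt and between 48.0 and 64.0 CPM in cKO. It rose from 30.7 and 30.9 to 71.0 and 86.5 CPM with UNC1999 (difference -1.32 ± 0.15, adjusted p = 0.00485). Gabra6 rose 3.73-fold with UNC1999, from 16.9 and 15.5 to 58.8 and 61.6 CPM, and the difference was -1.69 ± 0.26 (adjusted p = 0.0467). Eomes, a transcription factor of unipolar brush cells, and Islr2, a membrane protein of growing axons, had estimates of -0.38 and -0.35 in cKO and rose with UNC1999 (1.42 and 1.39). Cdk5r2, an activator of the neuronal kinase CDK5, had 0.03 and 0.92. Ptprk, a receptor tyrosine phosphatase, had 0.18 in cKO and fell with UNC1999 (-0.53). Nptx1 and Grin2c passed with any single wt or cKO library left out, whereas each of the other 5 lost its call without at least 1 of them. With only 2 libraries each of DMSO and UNC1999, none of the 7 passed without either DMSO library or without UNC1999 replicate 2.

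**Figure D5:**
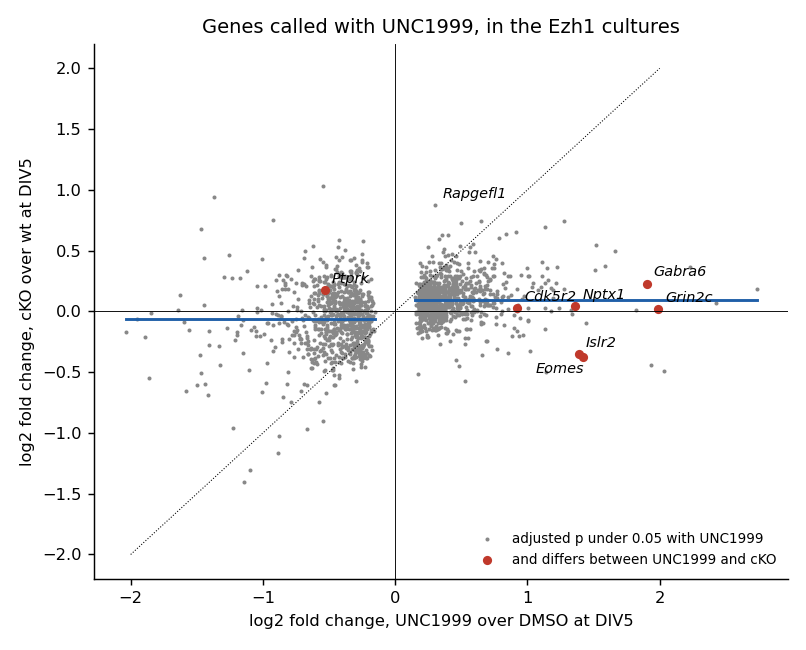
Each point is a gene called with UNC1999, with its log2 fold change under UNC1999 on the horizontal axis and in cKO on the vertical axis. Blue lines mark the medians in cKO (0.10 for genes that rose, -0.06 for genes that fell), the dotted line marks equal effects, and red points are the 7 genes whose effects differ.

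Genes that change as granule cells mature were followed in cKO, using libraries outside the Ezh1 cultures to choose them. In TRAP, 41.3% of genes were higher at P21 than at P7 and 41.7% were lower. The 5570 genes higher at P21 and tested in the Ezh1 cultures had a median of -0.02 in cKO, with 131 higher (2.35%) and 319 lower (5.73%) at an unadjusted p under 0.05, near the 2.96% and 4.96% of all genes tested. The 5536 genes lower at P21 had a median of 0.03, with 214 higher (3.87%) and 211 lower (3.81%). Their median transcript length was 3904 bases, against 3080 for the genes higher at P21. From DIV0 to DIV5 with DMSO 40.2% rose and 38.2% fell. Those that rose (5924 tested) and those that fell (5612) had medians of -0.01 and 0.01. Ezh1 itself rose from P7 to P21 (1.58 ± 0.06, adjusted p = 3.2e-11). It stood at 49.7 and 45.6 CPM at DIV0 and at 52.8 and 53.7 CPM at DIV5 with DMSO.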

How the data were processed

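The authors deposited 1 table of estimated counts per gene, whole numbers that are not normalized, from polyadenylated RNA sequenced in single-end reads, per the labels' protocols. Per the submitters' processing notes, Salmon 0.8.2 and the build mm10 were used, in roles not stated. Of 24100 gene identifiers, 24045 were matched to RefSeq symbols (GRCm38.p6). In the 9 Ezh1 columns 1041 genes are blank, 1012 of them on X and 28 on Y, and were left out. The 55 unmatched identifiers stayed in the fits.

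Robust quasi-likelihood tests (edgeR 4.0.16, R 4.3.3; two-sided) were run on TMM-scaled counts of genes kept by filterByExpr, which required a count of 10 and a total of 15. P-values were adjusted by Benjamini and Hochberg's method over every gene tested, and a gene was called at an adjusted p under 0.05. The model held the library set (replicates 1-2 or 3-5) and the genotype. The UNC1999 and DIV5 against DIV0 comparisons came from a fit of 8 culture libraries, those of DIV2 with DMSO included. The difference of effects came from a fit of 13, and the TRAP comparison from 10. Levels are TMM-scaled CPM. Errors are SDs for levels and SEs of the fit for log2 fold changes. Transcript lengths are the longest GENCODE vM21 transcript per symbol. DESeq2 1.42.0 and other settings were alternatives. The fits were tested on simulated data. Intervals from counts cover counting error and replicate spread, and reads carry no molecular identifiers.

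The members, the 20 program and 8 cell type lists and the tests were chosen with earlier results of these data known. Genes named are 6 anchors, up to 4 list members by adjusted p, called genes, and the genes that differ from UNC1999. Adjusted p-values were mostly tied, so list members are named by unadjusted p. That choice, and the naming of other genes with small p-values, followed a look at their values.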

Additional observations from a re-analysis of the deposited data

Results flagged for a closer look

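Among 192 groups of wt or cKO values examined, 6 held a library far from the others of its group, where chance alone would mark about 1 in 20. Robo1 stood at 53.7 CPM in wt replicate 2 and at 38.3 to 40.7 CPM in the other wt libraries. Grm5 stood at 65.2 CPM in wt replicate 3 and at 36.7 to 43.6 CPM in the others. Gabra4, a GABA-A receptor subunit, stood at 39.7 CPM in wt replicate 2 and at 27.6 to 30.8 CPM in the others. Mfap5, a microfibril protein of connective tissue, stood at 1.45 CPM in cKO replicate 2 and at 0.952 to 1.03 CPM in the others. The p53 target list summed to 1360 CPM in cKO replicate 1 and to 1175 to 1187 CPM in the others. Erythrocyte markers summed to 0.986 CPM in wt replicate 5 and to 0.372 to 0.491 CPM in the others. The wt replicate 1 library, which stood apart over all genes, was not among them. Each group pooled both library sets, so a library apart only within its set could go unmarked. Its absence here does not show that it was like the others.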

How the results depend on the processing

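For Ezh1 cKO against wt at DIV5, 1 gene was called with library size scaling and with robust estimation off, 2 without the filter on low counts (Rapgefl1 and Ccl9) and 5 with DESeq2. None was called with the replicate block, with no library set term, within replicates 1-2 or within replicates 3-5 (0 each). Leaving out single libraries gave 0 (without cKO replicate 3) to 2 (without cKO replicate 1). The wt and cKO numbers were not taken as pairs: within sets, same-numbered libraries had deviations that correlated at 0.151 in replicates 1-2 (1 value for both numbers by construction) and at 0.0722 and -0.0625 for replicates 3 and 4. The replicate block gave Rapgefl1 an adjusted p of 0.0779, and it left UNC1999 against DMSO at DIV5 with 1546 calls. For UNC1999 DESeq2 called 955, and single libraries left out gave 932 to 1297. For the difference between library sets DESeq2 called 1, and single libraries left out gave 0 to 1130 (without wt replicate 2). For the difference between the Ezh1 cKO and the UNC1999 effect DESeq2 called 53, and single libraries left out gave 0 to 14 (without wt replicate 5). A library left alone in its group was assumed to vary like the others.

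Some uncalled estimates near 0 in cKO changed sign. With the replicate block Grin2c, Neurod1 and Cdk5r2 gave -0.0318, -0.0443 and -0.0128. With no set term Ezh2, Neurod1, Nptx1, Cdk5r2 and Hoxd11 gave -0.00665, -0.0937, -0.000484, -0.0602 and 0.00112. Within replicates 1-2 Gabra6 and Grin2c gave -0.0348 and -0.146, and within replicates 3-5 Neurod1 and Nptx1 gave -0.0335 and -0.0381. With single libraries left out Ezh2 ran from -0.0177 to 0.064, Grin2c from -0.0674 to 0.123, Neurod1 from -0.0704 to 0.0747, Nptx1 from -0.0208 to 0.0809 and Cdk5r2 from -0.0334 to 0.0841. The cause was not tested. Library size scaling moved the median of all genes from 0.04 to 0.15 for DIV5 against DIV0 and from 0.00 to -0.21 for P21 against P7. Neither share of higher calls moved by over 10 percentage points. The 28 genes within 5 Mb of Ezh1 with an unadjusted p under 0.05, Ezh1 included, became 7 with no set term. They became 10 within replicates 1-2 and 15 within replicates 3-5. The count over all genes fell as well, from 1145 to 169 with no set term and to 573 within replicates 1-2. It was also below 1145 within replicates 3-5. Whether the share near Ezh1 moved beyond that of all genes was not tested. Recomputing the 5 Mb count and the medians of lists and of UNC1999 genes under these settings was added after the data were seen.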
